A study of Homo sapiens with 6 samples.

Results

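Immediate early transcription factors are the first genes that a cell switches on when a growth factor, neurotransmitter or depolarisation reaches it, before any new protein is made. The 7 genes described here, EGR1, FOS, FOSB, FOSL2, JUN, IER3 and NPAS4, were chosen by gene symbol out of 14779 genes with a named probe set on the array. The choice was made with earlier results of these data known. All 7 were measured, each with 1 probe set except IER3, which had 2. They were compared between LA1-55n cells, a human neuroblastoma line, in which a hairpin against the glycine decarboxylase transcript was induced (shGLDC99, 3 arrays) and cells of the same line in which a hairpin against GFP was induced (shGFP, 3 arrays). Every culture, controls included, received the inducer doxycycline at 0.5 µg/ml for 7 days in serum-containing medium, so effects of doxycycline and serum are common to both groups. The 3 arrays of a group carry the letters a to c. The labels name 1 hairpin per target, and they do not say whether the cells carrying it were a clone or a pool.

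EGR1 is a zinc finger factor that binds GC-rich promoter sites. FOS, FOSB and FOSL2 are leucine zipper proteins that pair with JUN to form AP-1, which binds short TRE and CRE motifs. NPAS4 is a basic helix-loop-helix PAS factor that in rodent neurons is induced selectively by calcium influx and pairs with ARNT or ARNT2. IER3 is induced with these factors by growth and stress signals, but it is a survival regulator at membranes and in the nucleus rather than a DNA-binding protein, so the name of the group covers it only loosely. Transcription of several of these genes is driven by serum response factor with ETS-type partners at CArG boxes and by CREB at cyclic AMP response elements (CRE), both downstream of MAP kinases.

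NPAS4, EGR1 and FOSB fell in shGLDC99 cells, to 50.8%, 61.2% and 74.2% of the shGFP level, and FOSL2 rose to 140% of it. FOS, JUN and IER3 were lower in shGLDC99 cells on average, but their groups overlapped and their differences were not past the threshold. In all, 1 of the 7 rose, 3 fell and the other 3 did not pass, and 6 of the 7 differences were negative. A gene is said to have risen or fallen where its adjusted p was under 0.05 in limma, with Benjamini-Hochberg adjustment over all 14779 genes. Over all genes 8.52% changed, 4.80% lower and 3.72% higher, and the median log2 difference of the 7 genes was -0.30 against -0.01 over all genes. As the 7 genes were chosen with earlier results known, their counts and median cannot be weighed against these values.

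The 250 bases upstream of the annotated transcript start are shown for the 4 genes that changed, from RefSeq promoter records on GRCh38.p14, 5′ to 3′. They are given so that the motifs of the 3 genes that fell can be read beside those of the 1 that rose. Capitals mark matches, on either strand, to the CArG box, to the CRE core TGACG and to the TATA box TATAAA.
EGR1, chr5:138465229-138465478, plus strand: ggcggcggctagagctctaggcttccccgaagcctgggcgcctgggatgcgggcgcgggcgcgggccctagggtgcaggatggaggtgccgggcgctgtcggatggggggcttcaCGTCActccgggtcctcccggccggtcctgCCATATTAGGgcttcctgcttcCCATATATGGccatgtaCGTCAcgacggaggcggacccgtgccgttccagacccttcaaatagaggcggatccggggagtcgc
NPAS4, chr11:66420754-66421003, plus strand: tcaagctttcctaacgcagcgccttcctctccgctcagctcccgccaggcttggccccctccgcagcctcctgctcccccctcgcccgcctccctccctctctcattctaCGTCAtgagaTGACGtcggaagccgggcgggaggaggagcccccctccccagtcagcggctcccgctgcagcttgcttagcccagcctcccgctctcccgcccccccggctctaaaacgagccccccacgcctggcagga
FOSB, chr19:45467746-45467995, plus strand: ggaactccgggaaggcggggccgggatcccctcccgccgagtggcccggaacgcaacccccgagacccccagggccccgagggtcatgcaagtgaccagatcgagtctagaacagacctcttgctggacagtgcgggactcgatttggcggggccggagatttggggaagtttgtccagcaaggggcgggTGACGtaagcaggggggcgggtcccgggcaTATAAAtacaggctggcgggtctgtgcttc
FOSL2, chr2:28392608-28392857, plus strand: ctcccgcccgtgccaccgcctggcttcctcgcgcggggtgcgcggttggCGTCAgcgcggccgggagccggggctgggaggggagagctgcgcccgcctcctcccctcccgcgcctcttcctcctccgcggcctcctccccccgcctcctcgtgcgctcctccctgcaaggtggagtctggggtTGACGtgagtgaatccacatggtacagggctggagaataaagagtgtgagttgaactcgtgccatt

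Of the 7 genes, 6 matched a promoter record, and each of these 6 held at least 1 CRE core in the 250 bases, which 21.2% of 35116 promoter records did. These 6 windows held 62% to 69.6% G and C bases, and the records behind that share were not matched for base content. EGR1 had 2 CArG boxes, from base -105 to -96 and from -83 to -74 counted from the transcript start, and a CArG box was present in 1.16% of all records. EGR1 also had a CRE core on either side of these boxes, at -135 to -131 and at -66 to -62. NPAS4 had 2 promoter records, of which the more upstream was used. It held 2 CRE cores in opposite orientation, at -140 to -136 and at -130 to -126. In FOSB the CRE core at -60 to -56 was followed by a TATA box at -30 to -25, and FOS had the same arrangement with a CRE core at -64 to -60 and a TATA box at -33 to -28. TATA boxes were present in 10.7% of all records. FOSL2, the gene that rose, had CRE cores at -201 to -197 and at -66 to -62, and JUN had 1 at -123 to -119. The full CRE TGACGTCA (1.65% of records), which contains the core, the TRE TGANTCA with C or G at N (4.2%) and the EGR site GCGNGGGCG with T or G at N (5.37%) had no match in these 6 windows. Both strands were searched, and a match or its absence in a window of this size describes its letters only.

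**Figure D1:**
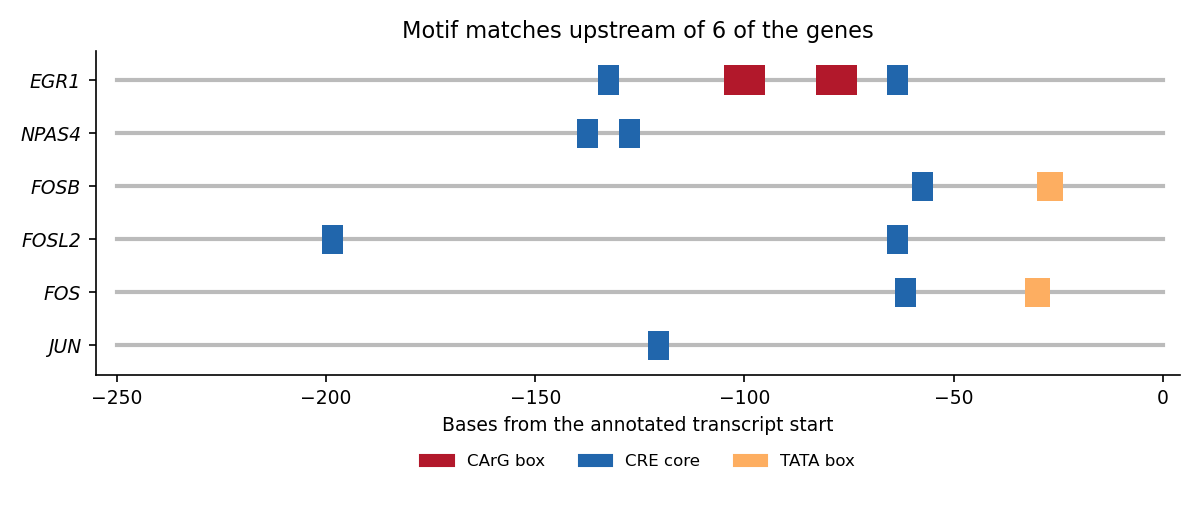
Motif matches in the 250 bases upstream of the annotated transcript start (0 on the horizontal axis, in bases) of EGR1, NPAS4, FOSB, FOSL2, FOS and JUN. Each of the 6 genes carries 1 or 2 CRE cores, the 2 CArG boxes are both in EGR1, and TATA boxes are in FOSB and FOS.

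EGR1 stood at 9.04, 8.86 and 8.96 log2 intensity on shGLDC99 arrays a, b and c, against 9.69, 9.76 and 9.54 on shGFP arrays a, b and c. Every shGLDC99 array was below every shGFP array, and within each group the values lay close together. The mean level was 8.96 ± 0.0913 (SD, n = 3) in shGLDC99 cells and 9.66 ± 0.111 (SD, n = 3) in shGFP cells. On the log2 scale EGR1 differed by -0.71 ± 0.0853 (SE), a 1.63-fold lower level (limma adjusted p = 0.00762). It remained past the threshold when any 1 of the 6 arrays was left out (adjusted p 0.0239 to 0.0347).

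NPAS4 had the largest difference of the 7 genes. Its level was 6.03, 5.60 and 5.57 on shGLDC99 arrays a, b and c, against 6.69, 6.70 and 6.73 on shGFP arrays a, b and c. The shGFP arrays were nearly identical, whereas shGLDC99 array a stood well above arrays b and c, and the groups did not overlap. The mean level was 5.73 ± 0.256 (SD, n = 3) in shGLDC99 cells and 6.71 ± 0.0213 (SD, n = 3) in shGFP cells. This amounted to -0.98 ± 0.128 (SE) on the log2 scale, a 1.97-fold lower level (limma adjusted p = 0.00924), and NPAS4 ranked 62 among the 14779 genes by the size of its difference. It passed the threshold whichever of the 6 arrays was left out (adjusted p 0.00892 to 0.0416).

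FOSB, the FOS family member known for its stable splice form after repeated stimulation of neurons, stood at 4.55, 4.71 and 4.54 on shGLDC99 arrays a, b and c and at 5.14, 4.86 and 5.10 on shGFP arrays a, b and c. The highest shGLDC99 array and the lowest shGFP array, both labelled b, were 4.71 and 4.86, so the groups were separate but close. FOSB differed by -0.43 ± 0.0984 (SE) in log2, a 1.35-fold lower level (limma adjusted p = 0.0450). This call was lost without shGLDC99 a, b or c or shGFP a or c (adjusted p 0.0735 to 0.131), and stood at an adjusted p of 0.0446 without shGFP b. With 1 probe set for the gene, the splice forms of FOSB were not separated.

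FOSL2, which encodes the AP-1 subunit FRA2, moved the other way. Its level was 6.66, 6.81 and 6.50 on shGLDC99 arrays a, b and c, against 6.17, 6.10 and 6.26 on shGFP arrays a, b and c. All 3 shGLDC99 arrays were above all 3 shGFP arrays. FOSL2 differed by 0.48 ± 0.0964 (SE) in log2, a 1.40-fold higher level (limma adjusted p = 0.0301). The call held without shGLDC99 c (adjusted p = 0.0406), and it was lost without shGLDC99 a or b or shGFP a, b or c (adjusted p 0.0699 to 0.0943).

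FOS itself, the prototype of the family, was the most variable of the 7 genes. It stood at 5.31, 5.40 and 5.94 on shGLDC99 arrays a, b and c and at 5.88, 5.63 and 5.96 on shGFP arrays a, b and c. The shGLDC99 arrays a and b were below every shGFP array, whereas shGLDC99 c was as high as the upper shGFP arrays. The log2 difference was -0.27, with a 95% interval from -0.70 to 0.16 (limma adjusted p = 0.421). It was -0.47 without shGLDC99 c (adjusted p = 0.102) and -0.15 without shGLDC99 a (0.701), the extremes with 1 array left out. The spread of FOS within groups, a residual SD of 0.272, exceeded that of 91.5% of all genes, and a difference of the size measured for FOSB lies inside its interval.

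JUN, the usual partner of the FOS proteins, stood at 8.57, 8.52 and 8.73 on shGLDC99 arrays a, b and c and at 8.70, 8.95 and 8.70 on shGFP arrays a, b and c. The groups overlapped, with shGLDC99 c above shGFP a and c. The log2 difference was -0.17, with a 95% interval from -0.41 to 0.06 (limma adjusted p = 0.349). With 1 array left out it lay between -0.23 and -0.09.

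IER3 stood at 5.05, 4.82 and 4.66 on shGLDC99 arrays a, b and c and at 4.93, 5.23 and 5.26 on shGFP arrays a, b and c. The groups overlapped through shGLDC99 a, which was above shGFP a. The log2 difference was -0.30, with a 95% interval from -0.61 to 0.01 (limma adjusted p = 0.225). The second, dimmer probe set of IER3 lay between 3.94 and 4.03 on shGLDC99 arrays and between 3.90 and 4.37 on shGFP arrays, with a log2 difference of -0.11.

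**Figure D2:**
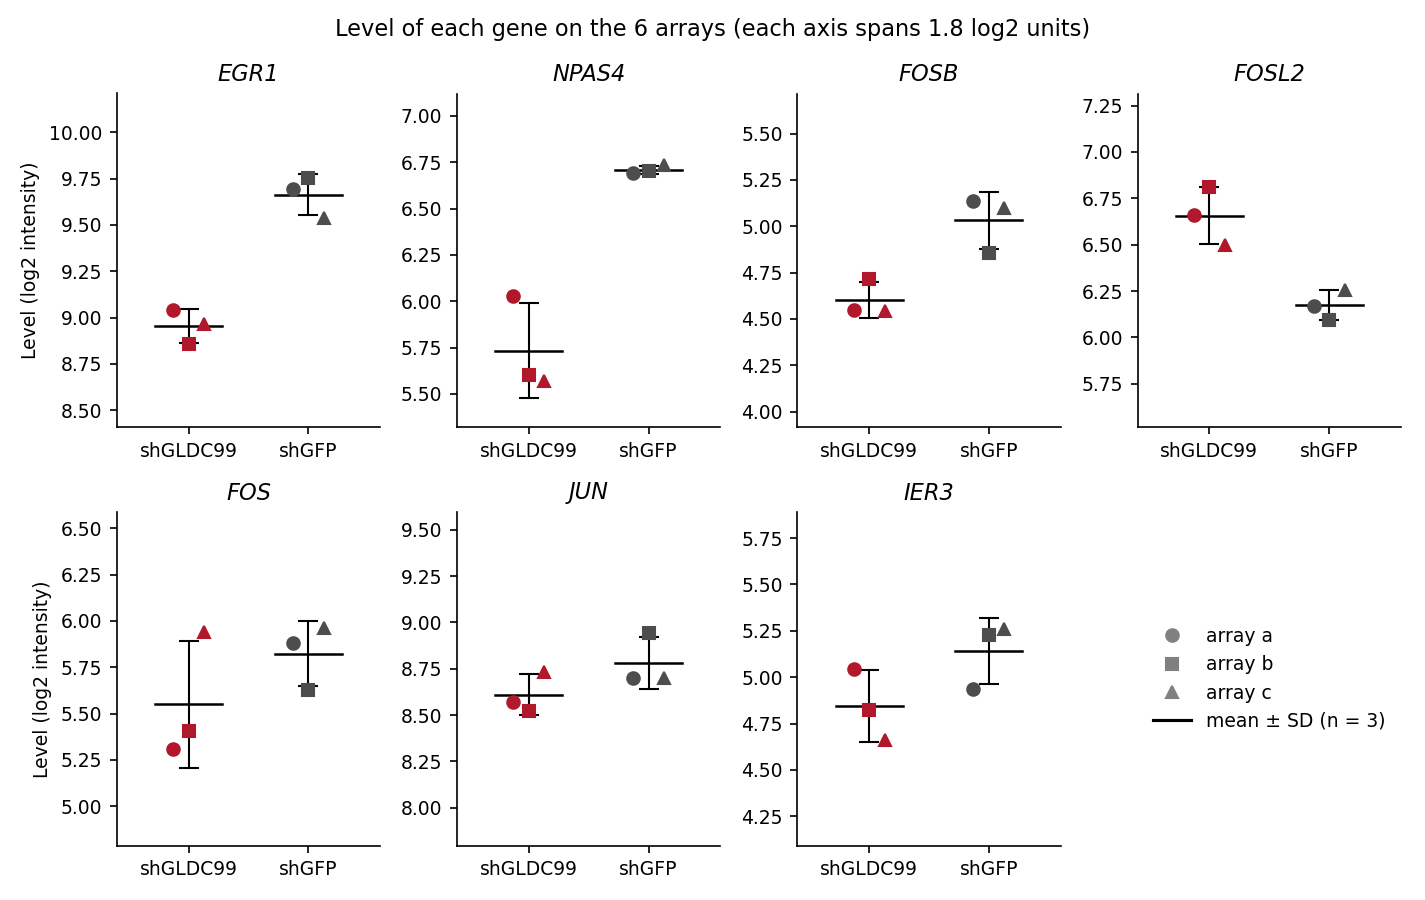
Level of each of the 7 genes in log2 intensity (vertical axes, each spanning the same range) on shGLDC99 arrays (red, left) and shGFP arrays (grey, right), with circles, squares and triangles for arrays a, b and c, and the mean ± SD of 3 arrays in black. EGR1, NPAS4 and FOSB lie lower on all shGLDC99 arrays and FOSL2 higher, while FOS, JUN and IER3 overlap between the groups.

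For EGR1, NPAS4, FOSB and FOSL2 the groups did not overlap, 3 with shGLDC99 lower and 1 with shGLDC99 higher. Over all genes the groups did not overlap in 30.8%, with shGLDC99 lower in 16.3% and higher in 14.5%. An exact permutation test of each gene's 6 values, two-sided, gave p = 0.1 for each of these 4 genes, the smallest that 3 against 3 arrays can give, 0.2 for IER3 and 0.3 for FOS and JUN. The deviations of single arrays differed between the genes: shGLDC99 a was the highest shGLDC99 array for EGR1, NPAS4 and IER3, b for FOSB and FOSL2, and c for FOS and JUN. The files hold no detection calls, so whether the dim probe sets of FOSB and IER3 exceeded background is not known here.

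**Figure D3:**
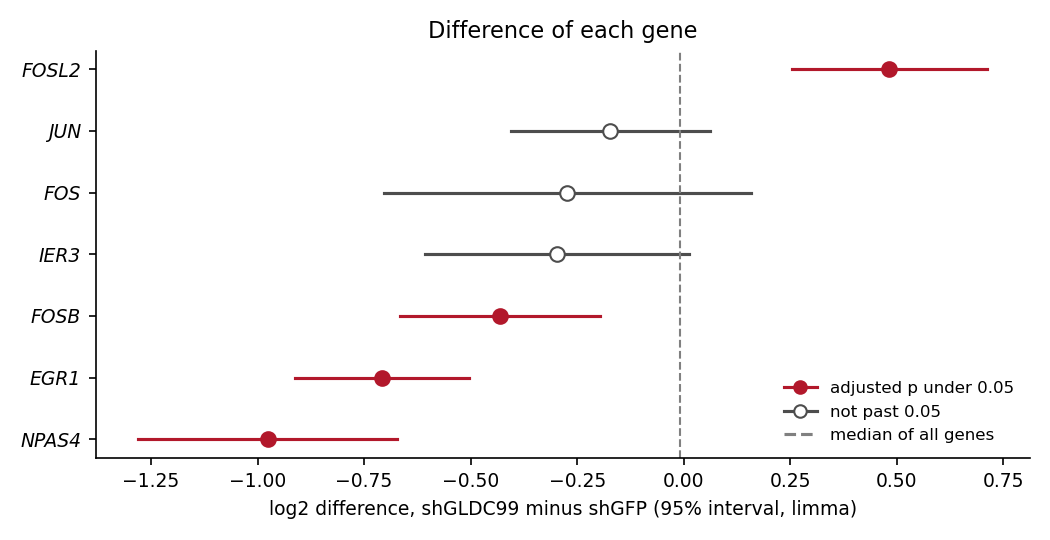
Log2 difference, shGLDC99 minus shGFP, of each of the 7 genes (points) with its 95% interval from limma (lines). Filled red points passed an adjusted p of 0.05 over all genes, and the dashed line is the median of all genes at -0.01. FOSL2 lies at 0.48, EGR1 and NPAS4 lie furthest to the left at -0.71 and -0.98.

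The transcript that the hairpin targets was lower in shGLDC99 cells, as the labels imply: GLDC stood at 5.98, 5.65 and 5.93 on shGLDC99 arrays a, b and c, against 7.85, 7.90 and 7.81 on shGFP arrays a, b and c. Array medians lay between 4.28 and 4.33. Of the sympathetic neuroblastoma markers, 13 of 16 were measured, and their mean level was 6.57 to 6.70 on shGLDC99 arrays and 6.62 to 6.75 on shGFP arrays. Of these 13, 8 were higher and 5 lower in shGLDC99 cells, with a median of 0.08. CHGB (0.41) and GAP43 (0.41) rose, and ISL1 (-1.09), GATA2 (-0.56) and GATA3 (-0.48) fell. The catecholamine enzymes TH, DBH and DDC averaged 5.37, 4.59 and 7.29 in shGLDC99 cells and 5.11, 4.45 and 7.30 in shGFP cells. They did not pass the threshold in limma (adjusted p = 0.169, 0.610 and 0.939), nor did PHOX2A, which differed by -0.21 (0.166). The neuronal marker STMN2 averaged 2.96 in shGLDC99 cells and 2.78 in shGFP cells (adjusted p = 0.544). Its levels lie below the array medians, so whether its probe set exceeded background is not known. Of the markers of Schwann cells, leukocytes, endothelium and epithelium, 5, 3, 3 and 6 were measured and 0 changed in each list in limma, with 0, 1, 0 and 3 at an unadjusted p under 0.05. Their mean levels lay between 3.53 and 4.06 on every array. Of 6 mesenchymal markers 1 rose, LUM, by 0.52 (adjusted p = 0.0125), and 0 fell in limma. TWIST1 differed by -0.26 with no overlap of the groups (adjusted p = 0.0706), so that 2 of the 6 had an unadjusted p under 0.05. The part of other cell types in the results was not tested.

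In the EGR family with its NAB corepressors, 6 of 7 genes were measured, of which 2 fell and 0 rose in limma (1 higher gene, EGR4, had an unadjusted p under 0.05), with a median of -0.12. EGR1 and NAB1 were the genes that fell. NAB1 encodes a corepressor that binds EGR1 and holds back its activity, and NAB2, a relative with the same role, is itself a target of EGR factors. NAB1 stood at 5.50, 5.53 and 5.53 on shGLDC99 arrays a, b and c, against 6.17, 6.20 and 6.10 on shGFP arrays a, b and c. The log2 difference was -0.64 ± 0.0610 (SE), with no overlap of the groups (limma adjusted p = 0.00419). NAB2 differed by -0.17, with a mean of 5.77 in shGLDC99 cells and 5.95 in shGFP cells (adjusted p = 0.142).

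The other EGR genes did not pass the threshold. EGR3 stood at 4.97, 4.49 and 4.53 on shGLDC99 arrays a, b and c and at 4.90, 4.66 and 4.32 on shGFP arrays, a difference of 0.04 within a wide interval (-0.40 to 0.48). EGR4 averaged 5.32 in shGLDC99 cells and 5.11 in shGFP cells, a difference of 0.21 (adjusted p = 0.194). The related zinc finger factor WT1 differed by -0.07 (adjusted p = 0.762), and EGR2 was not analysed here. Whether EGR1 differed from its relatives was not tested.

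Of 19 listed AP-1 family genes 13 were measured, of which 1 rose (FOSL2), 1 fell (FOSB) and 11 were not past the threshold, with a median of -0.02. JUND, a JUN protein that is present in resting cells, came closest, at 8.24 ± 0.0570 in shGLDC99 cells and 8.01 ± 0.0437 in shGFP cells (SD, n = 3 each). Its difference was 0.23, with every shGLDC99 array above every shGFP array (adjusted p = 0.0743). JUNB, another early-induced JUN protein, differed by -0.06 (adjusted p = 0.708), and FOSL1, which encodes FRA1, by -0.02 (0.956). The stress-induced ATF3 differed by 0.06, the repressive dimer partner JDP2 by 0.21, ATF2 by -0.02, MAF by 0.02, MAFF by -0.09 and MAFG by -0.12. Without the 4 AP-1 genes among the 7, 9 were measured and 0 changed in limma, and 1, JUND, had an unadjusted p under 0.05. Of those 9, JUND was the only gene whose groups did not overlap.

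**Figure D4:**
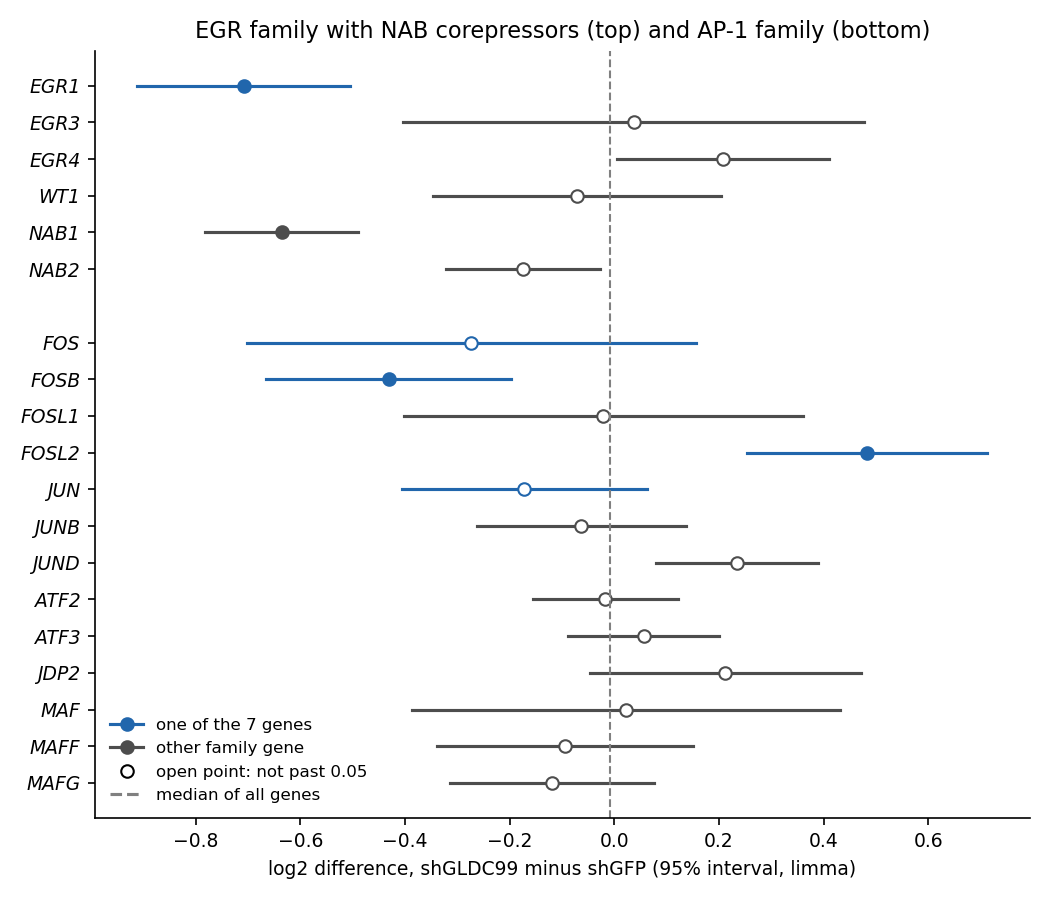
Log2 difference, shGLDC99 minus shGFP, with 95% intervals from limma, for the measured genes of the EGR family with NAB corepressors (upper block) and of the AP-1 family (lower block). Blue marks genes among the 7, filled points passed an adjusted p of 0.05 and the dashed line is the median of all genes. EGR1, NAB1 and FOSB lie to the left, FOSL2 to the right, and the other 15 points are open.

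NPAS4 works as a dimer, and neither measured partner passed the threshold. ARNT averaged 8.40 in shGLDC99 cells and 8.50 in shGFP cells, a difference of -0.10 (adjusted p = 0.423). ARNT2 averaged 7.15 and 7.21 in those groups, a difference of -0.05 (adjusted p = 0.644). For both partners every shGLDC99 array was below every shGFP array, as was so for 16.3% of all genes. Of 12 listed bHLH-PAS genes 11 were measured, of which 1 fell, NPAS4, and 1 rose, the circadian factor CLOCK, with a median of -0.15. CLOCK averaged 8.37 in shGLDC99 cells and 7.98 in shGFP cells, a difference of 0.38 (adjusted p = 0.0263), and its call was lost whichever of the 6 arrays was left out (adjusted p 0.0645 to 0.0833).

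Other immediate early genes showed no common direction. Of 51 listed genes beyond the 7, 31 were measured, 1 rose and 1 fell, while 29 did not pass, with 16 differences above and 15 below 0 and a median of 0.00. PLK2, a kinase induced by neuronal activity, stood at 6.33, 5.81 and 5.92 on shGLDC99 arrays a, b and c, against 5.04, 5.17 and 5.19 on shGFP arrays a, b and c. It rose by 0.89 (adjusted p = 0.0153), a call that was lost without shGFP a, b or c (highest adjusted p 0.0558). TIPARP, a dioxin-inducible ADP-ribosyltransferase, fell by 0.45 (adjusted p = 0.0179), and that call was lost without shGLDC99 a, b or c or shGFP c (highest adjusted p 0.0646). ARC, the synaptic early gene, differed by 0.13 (adjusted p = 0.385) and HOMER1 by -0.07 (0.657). NR4A1, NR4A2 and NR4A3, ZFP36 and BTG2 were not analysed here.

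Among the factors that act on these promoters, 15 of 20 were measured, 2 rose and 0 fell, with a median of -0.02, and SRF, CREB1 and EP300 were the 3 lower genes with an unadjusted p under 0.05 in limma. Serum response factor itself (SRF) averaged 8.23 in shGLDC99 cells and 8.44 in shGFP cells, a difference of -0.21, with every shGLDC99 array below every shGFP array (adjusted p = 0.0848). CREB1, the CRE-binding factor, averaged 7.73 and 7.90 in those groups, a difference of -0.17 (adjusted p = 0.155). ETS2, an ETS factor activated by ERK, rose by 0.43 (adjusted p = 0.0134), and MEF2A, a calcium-responsive factor, rose by 0.31 (0.0446). The ETS2 call was lost without shGLDC99 a or c or shGFP a or c (highest adjusted p 0.0523), and that of MEF2A whichever array was left out (0.0923 to 0.126). The ternary complex factors ELK1, ELK3 and ELK4 were not analysed here.

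Of 34 listed kinases that lead to these factors 18 were measured, 2 rose and 2 fell, with a median of -0.06. MAPK10, the neuronal JNK, rose by 0.53 (adjusted p = 0.0275) and its activator MAP2K4 by 0.47 (0.0411), whereas the p38 activator MAP2K6 fell by 0.42 (0.0218) and the RAF kinase ARAF by 0.29 (0.0417). The calls of MAP2K4 and ARAF were lost whichever of the 6 arrays was left out (adjusted p 0.0718 to 0.117 and 0.0885 to 0.123), and those of MAPK10 and MAP2K6 when any array but shGFP c was left out (highest adjusted p 0.0886 and 0.0736). MAP2K1, which activates ERK, differed by -0.09 (adjusted p = 0.425) and MAPK3, which encodes ERK1, by 0.09 (0.577).

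Of the feedback inhibitors that restrain ERK signalling, DUSP4 and SPRY2 rose, and others did not pass the threshold in either direction. These genes were picked by name, so their count cannot be weighed against the 8.52% of all genes that changed. DUSP4, a nuclear phosphatase of MAP kinases, stood at 6.82, 6.77 and 6.87 on shGLDC99 arrays a, b and c, against 5.26, 5.30 and 5.43 on shGFP arrays a, b and c. It rose by 1.49 (adjusted p = 0.00101). SPRY2, a Sprouty inhibitor of receptor signalling, rose by 0.90, with a mean of 6.34 in shGLDC99 cells and 5.43 in shGFP cells (adjusted p = 0.00962). DUSP6 (0.29, adjusted p = 0.224) and SPRY4 (0.18, adjusted p = 0.377) were not past the threshold, and SPRED1 was not analysed here. DUSP5, a nuclear ERK phosphatase, differed by -0.40, with every shGLDC99 array below every shGFP array (adjusted p = 0.0716), DUSP1 by 0.13 (0.318) and DUSP2 by -0.05 (0.837). DUSP6, SPRY4 and DUSP5 averaged 3.50, 3.45 and 2.81 in shGLDC99 cells and 3.21, 3.27 and 3.22 in shGFP cells. These levels lie below the array medians of 4.28 to 4.33, so whether these probe sets exceeded background is not known. Kinase activity was not measured, and a link between these genes and EGR1 was not tested.

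Genes described as targets of these factors moved in both directions. Of 17 measured AP-1 targets 1 rose and 3 fell, with a median of 0.02. The cyclin CCND1 fell by 0.60 (adjusted p = 0.00647), the metallothionein MT2A by 0.73 (0.0174) and vimentin (VIM) by 0.37 (0.0208), while TIMP3, an inhibitor of matrix proteases, rose by 0.92 (0.0174). CCND1 passed whichever array was left out. The MT2A call was lost without shGLDC99 b or c or shGFP a or c (highest adjusted p 0.0653), that of TIMP3 without shGLDC99 a, b or c or shGFP a (0.0667), and that of VIM when any array but shGFP a was left out (0.0749). With its probe sets averaged VIM differed by -0.21 (0.144).

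Of 12 measured EGR1 targets 1 rose and 2 fell, with a median of -0.02. Fibronectin (FN1) stood at 6.08, 5.83 and 6.04 on shGLDC99 arrays a, b and c, against 7.42, 7.29 and 7.53 on shGFP arrays a, b and c, and fell by 1.43 (adjusted p = 0.00164). NAB1, the corepressor that is also counted in the EGR family list, fell as given above, and the growth factor FGF2 rose by 0.43 (0.0111). These 3 calls held whichever of the 6 arrays was left out. THBS1, PDGFA, PDGFB and ICAM1, further genes of this list, differed by -0.05, 0.04, -0.06 and 0.01.

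Of 17 measured genes that follow neuronal activity later, 3 rose and 2 fell, with a median of 0.03. SCG2, a granin precursor that in mouse neurons lies downstream of FOS, stood at 9.48, 9.44 and 9.43 on shGLDC99 arrays a, b and c, against 8.07, 8.03 and 7.96 on shGFP arrays a, b and c, and rose by 1.43 (adjusted p = 0.000965). NRN1, a neurite growth protein, rose by 0.85 (adjusted p = 0.00283) and the neuropeptide precursor VGF by 0.57 (0.0207). SYT4, an activity-induced synaptotagmin, fell by 0.61 (0.00975) and the neuronal pentraxin NPTX2 by 0.36 (0.0213). BDNF, which in rodent neurons is a target of NPAS4, averaged 3.51 in shGLDC99 cells and 3.64 in shGFP cells, a difference of -0.13 (adjusted p = 0.238). The groups did not overlap for BDNF, with shGLDC99 lower, as was so for 16.3% of all genes. Its levels lie below the array medians of 4.28 to 4.33, so whether its probe set exceeded background is not known. The calls of SCG2, NRN1 and SYT4 held whichever of the 6 arrays was left out, that of VGF was lost without shGLDC99 a or b or shGFP a or b (highest adjusted p 0.0693), and that of NPTX2 whichever array was left out (0.0540 to 0.0765).

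**Figure D5:**
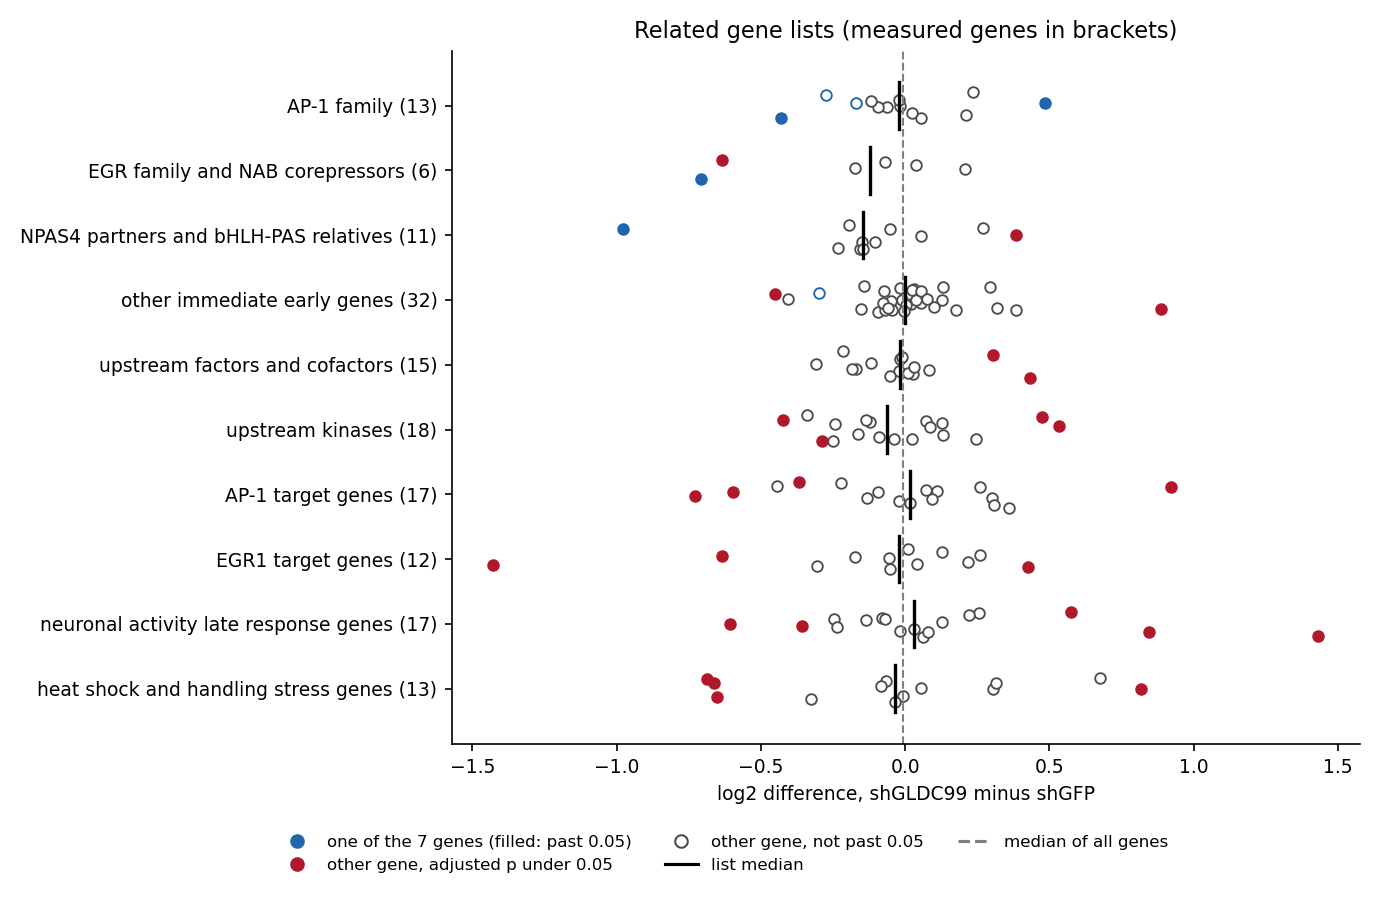
Log2 difference, shGLDC99 minus shGFP, of every measured gene in 10 related lists (rows, with the number of measured genes), where black bars are list medians and the dashed line is the median of all genes. Blue points are genes among the 7 and filled points passed an adjusted p of 0.05. List medians lie between -0.15 and 0.03, and each list holds unfilled points on both sides of 0.

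Over these 10 lists together, 137 genes beyond the 7 were measured, of which 12 rose and 13 fell, while 112 did not pass, with a median of -0.02. The share that changed over all genes was 8.52%. As the lists were chosen with earlier results of these data known, their counts cannot be weighed against that share. Of the 25 that changed, 11 passed whichever of the 6 arrays was left out and 5 were lost whichever was left out. With any single array removed, the 25 became 13 to 15.

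Immediate early genes also respond to handling of cells, so genes of heat shock and acute stress are given beside them. Of 20 listed 13 were measured, 1 rose and 3 fell, with a median of -0.04, and the mean level of the list was 6.77 to 6.83 on shGLDC99 arrays and 6.80 to 6.85 on shGFP arrays. The small chaperone HSPB1 fell by 0.69 (adjusted p = 0.00456), and the HSP70 genes HSPA1A and HSPA1B fell by 0.65 (0.00750) and 0.66 (0.00938). HSPA1A and HSPA1B are nearly identical copies, so their probe sets may read the same transcripts. DDIT4, a stress-induced inhibitor of mTORC1, rose by 0.82 (0.00657). DDIT3 differed by 0.67 (adjusted p = 0.0725), SESN2 by 0.31 (0.0683) and TXNIP by -0.32 (0.0504). For each of them the groups did not overlap, and none was past the threshold. Of the 13 differences in the list, 5 were above and 8 below 0. The part of handling or stress in the differences of EGR1, NPAS4 and FOSB was not tested.

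The genes with the most similar profile over the 6 arrays were, for EGR1, IQCB1 (Pearson r = 0.999), ZNF142 (0.997) and BUB1B (0.997). For NPAS4 they were COPS3 (0.999), CDCA3 (0.997) and ACD (0.997). For FOSB they were HMMR (0.994), ZFP14 (0.992) and DIMT1 (0.991), and for FOSL2 they were SERGEF (0.997), EI24 (0.996) and RWDD1 (0.995). Each r rests on 6 values that include the difference between the groups, and the 3 genes of each were picked as the highest among 14779. The similarity is one of shape and not of size: IQCB1 differed by -0.22 and COPS3 by -0.23, against -0.71 for EGR1 and -0.98 for NPAS4.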

How the data were processed

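Affymetrix Human Gene 2.0 ST arrays were hybridised with total RNA, 1 for each of 6 LA1-55n samples. The authors deposited log2 intensity values, 1 per probe set and array, made with Partek per the submitters' processing notes. The log2 scale was inferred, because the maximum of 13.28 lies above 11.09, the ceiling of a natural log of scanner intensity, and every fold rests on it. How background was removed and arrays normalized is not given in the sources used. The number of arrays limits the precision, and as nothing says how the 3 samples of a group were separated, p-values reflect only the spread among these samples, which may be technical.

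The platform annotation gave 1 symbol to 15098 of 31135 probe sets, several to 0 and none to 16037. Entrez IDs of all 15098 were found in the RefSeq gene table. The named probe sets covered 14779 genes, and the 256 genes with several probe sets were represented by that with the highest mean. No filter was applied. Differences are shGLDC99 minus shGFP, fitted with limma 3.58.1 in R 4.3.3 (lmFit, eBayes, no covariates) across all genes and adjusted by the Benjamini-Hochberg method. The code was tested on simulated data. Promoters and motifs were read from RefSeq records (GRCh38.p14).

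The 17 gene lists, 1 of which holds the 7 genes, were chosen with earlier results of these data known. The rule for named genes took the 7 genes, GLDC, up to 6 changed genes per list with the smallest adjusted p, the measured AP-1 and EGR genes, 5 feedback genes (DUSP4, DUSP6, SPRY2, SPRY4, SPRED1) and, for each changed gene of the 7, the 3 genes with the highest Pearson r. Further list genes were named after their values were seen. Alternatives were quantile normalization again, median centring, leaving out the dimmest 40% of genes, averaging probe sets, the replicate letter as a block, a prior variance that follows intensity, limma's array weights, all probe sets tested, and leaving out each array in turn.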

Additional observations from a re-analysis of the deposited data

How the results depend on the processing

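The directions of all 7 genes were the same under every alternative run. EGR1 and NPAS4 passed the threshold under all 14 alternatives, and FOS, JUN and IER3 under 0 of them. The 4 changed genes became 2 to 3 with 1 array left out (2 to 3 lower, 0 to 1 higher). FOSB ranged from -0.52 to -0.38 and FOSL2 from 0.41 to 0.56 in those fits. FOSB was not past the threshold with all probe sets tested (-0.43, adjusted p = 0.0685). Over all genes 1259 changed, 550 higher and 709 lower. Without the dimmest 40% of genes 2221 did (969 higher, 1252 lower), and with a prior variance that follows intensity 2438 did (1088 higher, 1350 lower), with 40 in place of 25 changed genes in the related lists. With 1 array left out 461 to 546 changed (207 to 240 higher, 238 to 327 lower), and 13 to 15 in the related lists. These fits have fewer arrays or genes, or another prior; the cause was not tested further.

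With the replicate letter as a block (replicate block), 229 genes changed, 103 higher and 126 lower, and 9 in the related lists. Of the 7 genes 2 changed, EGR1 and NPAS4, and 0 were higher. FOSB (-0.43, adjusted p = 0.128) and FOSL2 (0.48, adjusted p = 0.101) were not past the threshold. The deviations of same-letter arrays from their group means were nearly uncorrelated, at -0.0119 for a, 0.0182 for b and -0.00106 for c. Such a correlation can miss an effect on some genes, so whether arrays of the same letter share more than a name is not known.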
